A study of Saccharomyces cerevisiae with 12 samples.

Results

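The comparison was between 3 budding yeast strains with the prp43-1 allele and 3 strains with intact PRP43, all labelled 37 °C. It used 6 of the 12 libraries of the series, chosen by their labels. The prp43-1 strains carried the allele alone, with set1Δ, or with set2Δ, and the PRP43 strains were the wild type, set1Δ and set2Δ. Each prp43-1 library was paired with the PRP43 library of the same SET status, which gave 3 pairs. All 6 strains were labelled as haploid BY4741 derivatives, MATa his3Δ1 leu2Δ0 met15Δ0 ura3Δ0. Cultures were in YPD, and the growth label gives only 25 °C, so the time spent at 37 °C is not known. Hot phenol RNA went through DNase I treatment and removal of ribosomal RNA before TruSeq library preparation. Each genotype had 1 library, so the SD and the tests describe the spread over strains of different SET status and not over repeats of 1 genotype. Whether reads come from fewer cells or from less RNA per cell cannot be told apart in such bulk samples.

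Prp43 is a DEAH-box RNA helicase with roles in splicing and in ribosome assembly. In splicing it takes apart the spliceosome that is left with the excised intron, and it also discards spliceosomes that have stalled on poor substrates. In ribosome assembly it acts on precursor particles, where it helps small nucleolar RNAs leave the ribosomal RNA they have paired with. Set1 and Set2 are histone H3 methyltransferases whose genes set the 3 pairs apart. The counted feature was a splice form, a stretch of a gene that reads skip, listed by its first and last skipped base, that matches no annotated intron at both ends. A form with GT and AG at its ends and the branch point consensus TACTAAC inside it is called intron-like here. Reads given for a gene are summed over its listed forms and do not measure its RNA level. Use of a form and the level of its host RNA cannot be told apart from these counts.

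The sequences of the forms on which the results turn are shown from the 5′ end to the 3′ end of the skipped stretch. They were read from the sacCer3 reference genome by the coordinates of the forms. Capitals mark the first 6 bases, each TACTAAC and the closing AG. The first 5 are whole skipped stretches, shown because they are short and were read mainly in PRP43 libraries.

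RPS22B 69 nt, chrXII:856989-857057, plus strand: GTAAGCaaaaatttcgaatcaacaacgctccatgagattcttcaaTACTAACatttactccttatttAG
RPL30 98 nt, chrVII:439382-439479, plus strand: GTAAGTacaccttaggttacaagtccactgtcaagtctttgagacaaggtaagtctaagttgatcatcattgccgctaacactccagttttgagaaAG
YCL002C 54 nt, chrIII:111580-111633, minus strand: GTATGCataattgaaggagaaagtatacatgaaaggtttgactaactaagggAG
ATG44 66 nt, chrIX:47699-47764, plus strand: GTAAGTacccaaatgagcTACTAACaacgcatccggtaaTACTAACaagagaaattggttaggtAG
VPS75 87 nt, chrXIV:185492-185578, plus strand: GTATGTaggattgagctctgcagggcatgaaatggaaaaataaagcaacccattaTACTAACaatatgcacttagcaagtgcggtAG

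The next stretch is the 3′ end of a 550 nt form upstream of RPS22B, shown from its branch point consensus on.

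RPS22B 550 nt, chrXII:856407-856427, plus strand: TACTAACgtttcaaaacatAG

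The APE2 stretch runs from the branch point consensus to the annotated 3′ splice site, and its 3 capital AG mark the ends of a 358 nt form, of a 365 nt form and of the annotated intron, in that order.

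APE2 358 nt, 365 nt and annotated ends, chrXI:155594-155654, plus strand: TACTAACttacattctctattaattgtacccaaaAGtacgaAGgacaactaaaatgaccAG

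The RPL7A stretch is a form read almost only in prp43-1 libraries, and the HIS3 stretch is a gap that prp43-1 libraries held in a gene the labels give as his3Δ1.

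RPL7A 96 nt, chrVII:365337-365432, minus strand: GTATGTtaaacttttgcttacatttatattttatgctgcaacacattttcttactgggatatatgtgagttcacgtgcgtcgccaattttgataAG
HIS3 20 nt, chrXV:722312-722331, plus strand: cctttggatgaggcactttc

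The 12 columns listed 6195 forms, and the 6 libraries at 37 °C held 214055 to 367858 reads on them. SCR1, the RNA subunit of the particle that targets secretory proteins, took 74.5% to 86.7% of these reads, so values are given as RPM, reads per 1000000 reads on hosts other than SCR1. That base was 37380 to 54616 reads per library, where 1 read is worth 18.3 to 26.8 RPM. The U3 genes took 24.8%, 35.2% and 42.4% of it in the prp43-1, set1Δ prp43-1 and set2Δ prp43-1 libraries, against 19.8%, 24.4% and 19.9% in the wild type, set1Δ and set2Δ libraries. Values per library keep this order throughout. Some libraries went against their MATa label: the 6 α-specific genes held 0, 0 and 15 reads in the prp43-1 libraries, against 0, 16 and 2 in the PRP43 libraries. The 8 a-specific genes held 2, 2 and 0 reads in the prp43-1 libraries, against 3, 0 and 0 in the PRP43 libraries. Both set2Δ libraries held α-specific reads, while the library labelled set1Δ differed from its prp43-1 partner in these genes, and results are given with and without that pair where it decides them. Forms seen on SET1 and SET2 were too few to check the deletions, and the position of the prp43-1 change was not read.

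Intron-like forms took a smaller share of the reads in every prp43-1 library than in its PRP43 partner. They held 310, 460 and 358 reads in the prp43-1 libraries, which is 0.829%, 0.848% and 0.761% of the reads on hosts other than SCR1. In the PRP43 libraries they held 1328, 763 and 968 reads, or 2.43%, 1.42% and 2.48%. The prp43-1 shares lay close together and below all PRP43 shares, and the library labelled set1Δ was the lowest of the PRP43 ones. Wilson 95% intervals, which cover counting error only, ran from 0.687% to 0.928% over the prp43-1 libraries and from 1.32% to 2.64% over the PRP43 libraries. The paired log2 ratios were -1.55, -0.74 and -1.70, with a mean of -1.33 ± 0.52 (SD, n = 3 pairs). An exact two-sided sign-flip test gave p = 0.25, the smallest value that 3 pairs allow, so this design cannot pass 0.05. Without the set1 pair the mean was -1.63.

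Fewer different intron-like forms were seen in each pair, a count that depends on the reads they held and was not adjusted for them. The count was 74, 88 and 77 forms in the prp43-1 libraries, against 155, 95 and 138 in the PRP43 libraries. Over all forms it was 2204, 1515 and 1504 in the prp43-1 libraries, against 2001, 1722 and 1720 in the PRP43 libraries. Forms with GT-AG ends but no TACTAAC were lower by a similar amount in each pair, with log2 ratios of -1.04, -0.95 and -1.08. Forms with neither GT-AG ends nor a low deposited p-value made up 98.6% to 98.7% of the reads in the prp43-1 libraries, against 96.4% to 97.8% in the PRP43 libraries. In the genes that host intron-like forms, the forms that are not intron-like had log2 ratios of 0.22, -0.46 and -0.98, with no direction common to the 3 pairs.

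**Figure D1:**
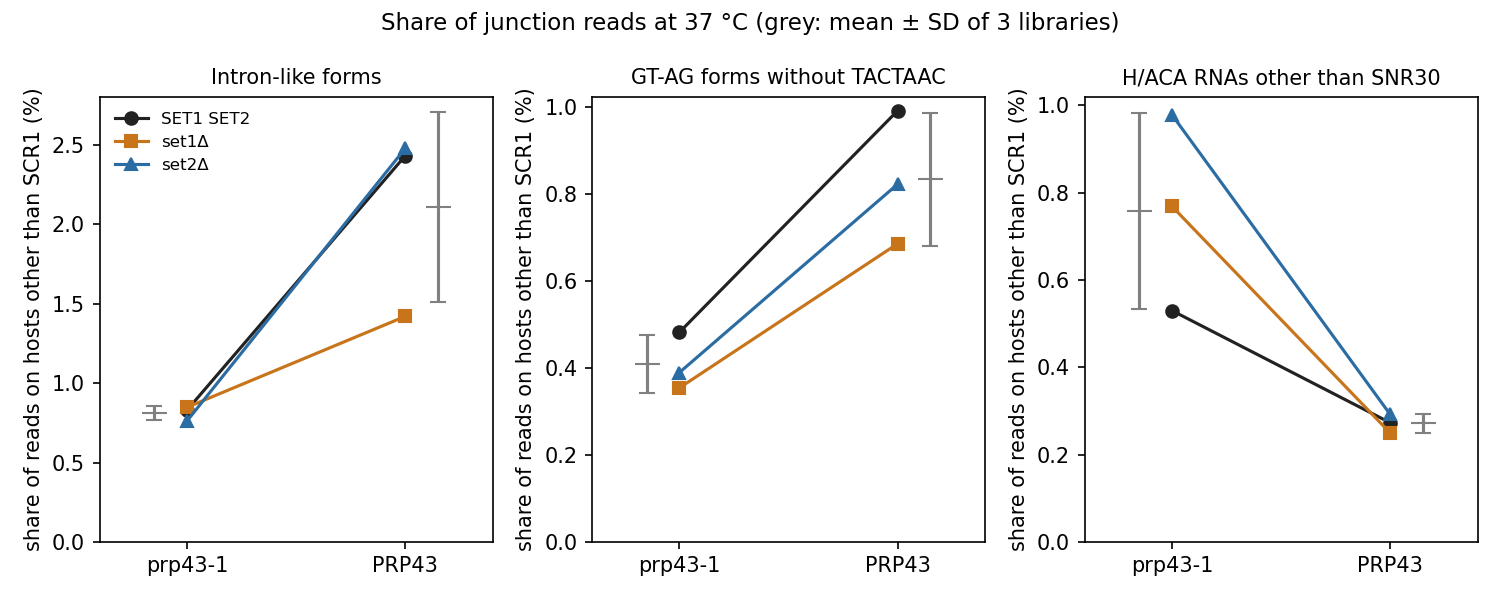
Share of the reads on hosts other than SCR1 (%) in each library at 37 °C, for intron-like forms, for GT-AG forms without TACTAAC and for H/ACA RNAs other than SNR30. Lines join the libraries of the same SET status and grey bars give the mean ± SD of 3 libraries. Intron-like forms lie at 0.761% to 0.848% in prp43-1 and at 1.42% to 2.48% in PRP43, and the H/ACA RNAs lie the other way round.

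Direction across single forms followed the shares. Of 1038 forms with at least 10 reads, 236 were lower in prp43-1 in all 3 pairs (22.7%) and 106 were higher (10.2%). Among the 66 intron-like forms, 34 were lower in all 3 pairs and 1, UBC13 151 nt, named after its values were seen, was higher. UBC13, for a ubiquitin-conjugating enzyme, had 2, 4 and 2 reads of it in prp43-1 against 2, 0 and 1 in PRP43. The groups did not overlap for 25 intron-like forms with lower values in prp43-1 and for 1 with higher values. The same count over all forms was 129 lower (12.4%) and 63 higher (6.07%), and over the 824 forms of hosts other than SCR1 it was 127 lower (15.4%) and 37 higher (4.49%). Without the set1 pair 51 of the 66 intron-like forms were lower in both other pairs and 1 was higher, against 362 lower and 255 higher among all 1038 forms. The median log2 ratio of pooled reads was -1.57 over the intron-like forms, -0.41 over the forms of hosts other than SCR1 and -0.22 over all forms.

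In the test across forms, edgeR's quasi-likelihood fit with SET status as a block, 12 of 446 forms passed an adjusted p of 0.05 (2.69%). Of these, 8 fell in prp43-1 (1.79%) and 4 rose (0.897%), and 63 forms had an unadjusted p under 0.05 (14.1%). Of 36 tested forms with GT-AG ends, 6 fell and 0 rose, and 4 of the 6 were intron-like among 19 intron-like forms tested. Of 410 tested forms without GT-AG ends, 2 fell and 4 rose. These calls varied with the pairs used: 27 forms passed without the set1 pair, 3 without the set2 pair and 1 without the wild type pair. With coding reads as library size 4 forms fell and 5 rose, and with column totals 0 passed (56 at an unadjusted p under 0.05).

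Ribosomal protein genes, RPS22B and RPL30, held 3 of the 6 GT-AG forms that fell. By gene sums 2 of 27 ribosomal protein genes tested fell, against 7 of all 125 genes tested. RPS22B encodes a protein of the small ribosomal subunit, and its annotated intron holds the H/ACA RNA SNR44. Its 69 nt form joins a new 5′ site 414 nt downstream of the annotated one to the annotated 3′ splice site. This form had 1, 6 and 8 reads in the prp43-1 libraries, against 63, 65 and 81 in the PRP43 libraries. All PRP43 libraries lay far above all prp43-1 libraries, with 102 ± 72.0 RPM in prp43-1 and 1479 ± 516 RPM in PRP43 (SD, n = 3 each). The log2 fold change was -3.87 ± 0.58 (SE), with an edgeR adjusted p of 2.34e-05. It passed in 10 of 11 other settings, where the edgeR and DESeq2 adjusted p ran from 2.71e-07 to 0.0998.

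A second RPS22B form, 550 nt long and ending upstream of the annotated gene, was not read in prp43-1 at all. It had 0, 0 and 0 reads in the prp43-1 libraries, against 63, 5 and 41 in the PRP43 libraries. Set against a floor of 3 reads over the group, that is at least 34.2-fold lower in prp43-1, with an edgeR adjusted p of 2.34e-05. The library labelled set1Δ was the low one among the PRP43 libraries.

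RPL30 encodes a large-subunit protein that is known to bind its own transcript and hold back its splicing. Its 98 nt form lies within the coding gene, touches no annotated splice site and lacks TACTAAC. It had 3, 2 and 2 reads in the prp43-1 libraries, against 48, 35 and 26 in the PRP43 libraries. The PRP43 values were close to each other and well above prp43-1, and the log2 fold change was -3.77 ± 0.69 (SE; edgeR adjusted p = 0.000381).

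Outside the ribosomal proteins, the APE2, MAF1 and YCL002C forms fell. APE2 encodes an aminopeptidase, and its 365 nt form uses the annotated 5′ site with a 3′ end 18 nt before the annotated one, the second capital AG in the APE2 stretch above. It had 4, 34 and 15 reads in the prp43-1 libraries, against 116, 103 and 113 in the PRP43 libraries. The PRP43 libraries were alike and the prp43-1 libraries were all lower, with the set1Δ prp43-1 library the nearest. The log2 fold change was -2.87 ± 0.51 (SE; edgeR adjusted p = 0.000314). The 358 nt form, which ends at the first AG after the branch point, had 5, 2 and 0 reads in prp43-1 against 38, 5 and 14 in PRP43. Its log2 fold change of -2.74 did not pass (edgeR adjusted p = 0.0746), but it passed without the set1 pair (edgeR adjusted p = 0.00215).

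MAF1 encodes a repressor of RNA polymerase III. Its 622 nt form uses the annotated 5′ site and ends 542 nt past the annotated 3′ site, at chrIV:457476-458097. The last branch point A of the form lies 574 nt before its 3′ end, within the annotated intron. This form had 0 reads in each prp43-1 library, against 22, 9 and 9 in the PRP43 libraries, which is at least 12.5-fold lower (edgeR adjusted p = 0.00771). YCL002C has no described role here. Its 54 nt form ends 22 nt before the annotated 3′ site and lacks TACTAAC. It had 0, 0 and 1 reads in prp43-1 against 22, 7 and 12 in PRP43 (edgeR adjusted p = 0.0179).

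Several further intron-like forms had values of the same kind without passing. VPS75 encodes a histone chaperone, and its 87 nt form ends 8 nt before the annotated 3′ site. It had 1, 2 and 1 reads in prp43-1 against 15, 24 and 6 in PRP43 (edgeR adjusted p = 0.0549). ATG44 encodes a mitochondrial fission factor, and its 66 nt form ends 4 nt past the annotated site and holds 2 TACTAAC. It had 1, 1 and 2 reads in prp43-1 against 22, 14 and 9 in PRP43 (edgeR adjusted p = 0.0548). YSC84, whose product binds actin, had a 172 nt form with 3, 4 and 0 reads in prp43-1 against 25, 13 and 8 in PRP43 (edgeR adjusted p = 0.0976). In these 3 genes every PRP43 library lay above every prp43-1 library.

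Among the most-read intron-like forms, APE2 365 nt and RPS22B 69 nt fell as given above. Those of ECM33, RPS10B, RPS25A and URA2 differed less. ECM33 encodes a cell wall protein, and its 327 nt form ends 3 nt before the annotated 3′ site. It had 63, 142 and 116 reads in prp43-1, against 205, 175 and 206 in PRP43, with means of 2256 ± 500 RPM and 4095 ± 1051 RPM (SD, n = 3). The groups did not overlap, and the log2 fold change of -0.85 ± 0.40 (SE) did not pass (edgeR adjusted p = 0.299). The RPS10B 379 nt form had 71, 34 and 32 reads in prp43-1 and 67, 51 and 50 in PRP43, and the library with the prp43-1 allele alone was the highest of all 6 on the RPM scale. The form upstream of RPS25A, 308 nt long, had 14, 23 and 25 reads in prp43-1 and 23, 11 and 20 in PRP43. URA2 encodes the first enzyme of pyrimidine synthesis, and its 340 nt upstream form had 12, 22 and 29 reads in prp43-1 against 67, 16 and 63 in PRP43. In URA2 the library labelled set1Δ was below every prp43-1 library, and without the set1 pair the form passed (edgeR adjusted p = 0.0367).

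The other intron-like forms with at least 30 reads spread over both outcomes. Lower on the RPM scale in every prp43-1 library than in any PRP43 library were the GCR1 683 nt, RPL22A 318 nt and RPS0B 662 nt forms, at 0 to 4 reads in prp43-1 and 3 to 14 reads in PRP43. For GCR1 683 nt both libraries of the set1 pair had 3 reads, and only library size set them apart (55.3 against 55.8 RPM). GCR1 encodes an activator of glycolytic genes, and its 739 nt form had 2, 4 and 4 reads in prp43-1 against 25, 2 and 6 in PRP43. TDA5 208 nt, with its 3′ end 137 nt past the annotated site, had 0, 3 and 0 reads in prp43-1 against 13, 23 and 1 in PRP43. In the SEC14 127 nt form, in a gene for a phospholipid transfer protein, reads were 7, 8 and 10 in prp43-1 against 34, 0 and 14 in PRP43. Groups also overlapped for SEC14 163 nt, SPT14 75 nt, DTD1 97 nt, RPL24B 395 nt, ARF2 347 nt, RPL34A 365 nt and RPS4B 273 nt, at 0 to 9 reads in prp43-1 and 0 to 23 in PRP43.

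**Figure D2:**
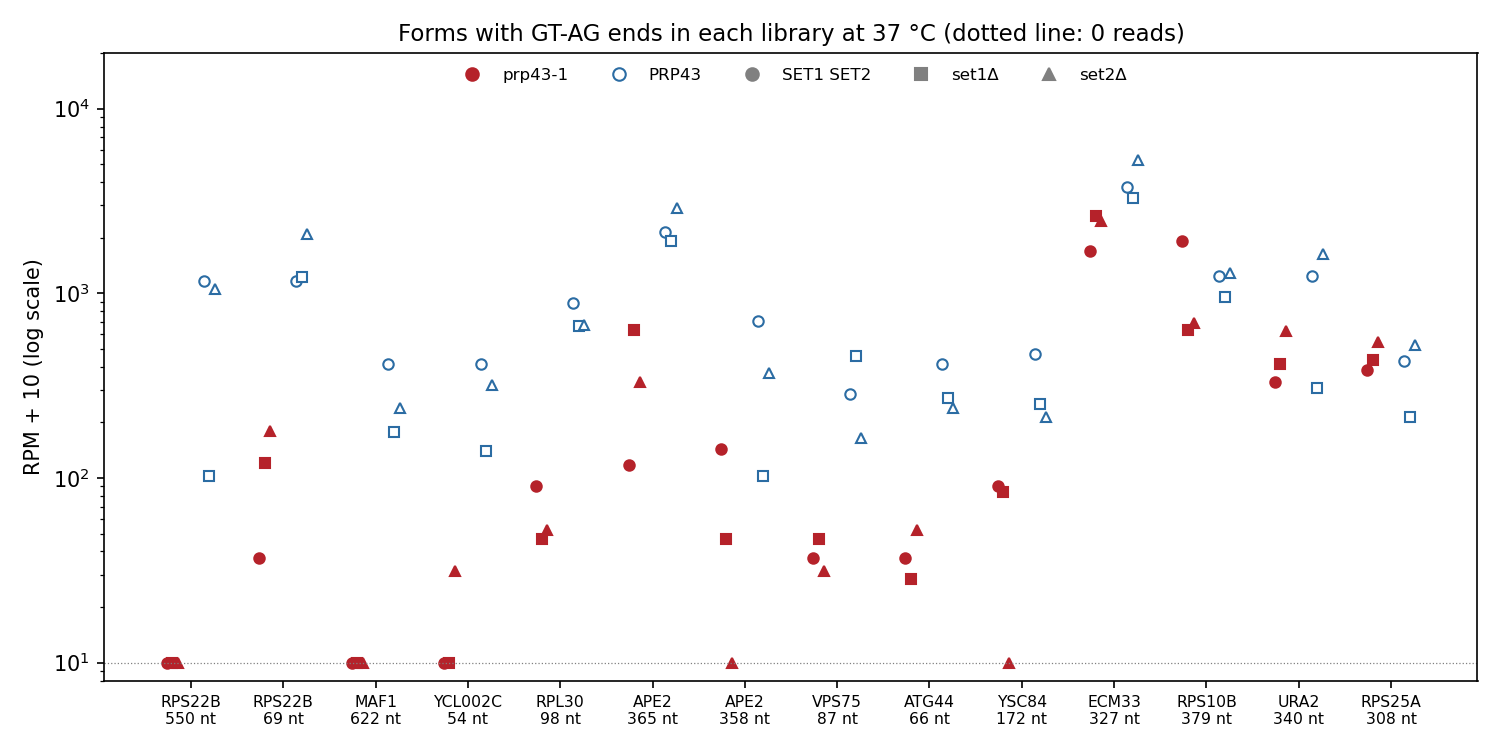
RPM + 10 on a log scale of 14 forms with GT-AG ends in the 6 libraries at 37 °C, prp43-1 filled and to the left of PRP43, with the symbol shape giving the SET status. The groups do not overlap for RPS22B 69 nt and RPL30 98 nt, and they do for RPS10B and RPS25A.

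Intron-like forms were next grouped by the splice sites they use. With an annotated 5′ site and a 3′ end before the annotated one, the mean log2 ratio of the share was -1.06 ± 0.44 (SD, n = 3 pairs). With a 3′ end 1 to 30 nt past the annotated one it was -1.23 ± 0.46, and with a 3′ end over 30 nt past it -1.96 ± 0.60. Forms with a 3′ end past the annotated one span the annotated intron, so a TACTAAC within that intron counts for them. Forms that join a new 5′ site to an annotated 3′ site had -1.88 ± 0.23, and forms in genes without an annotated intron had -1.45 ± 0.90. Forms that join 2 annotated sites, with 23 reads in all, had log2 ratios of -0.77, -0.28 and 0.32. The differences between these classes were not tested. Many of the classes share genes and all share the same 6 libraries.

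Forms were also grouped by length, by their ends and by host, again with no test between classes. Under 100 nt the intron-like share was 0.0749%, 0.0719% and 0.0744% in the prp43-1 libraries, against 0.412%, 0.300% and 0.384% in the PRP43 libraries, a mean log2 ratio of -2.30 ± 0.21. Between 100 and 300 nt the mean was -1.57 ± 0.55, between 300 and 500 nt -1.0 ± 0.53, and from 500 nt on -1.89 ± 1.39. By the last 3 bases, forms ending in TAG had -1.86 ± 0.30, in CAG -1.29 ± 0.65 and in AAG -1.14 ± 0.59. Forms that begin with the consensus GTATGT had -1.24 ± 0.55 and forms with another beginning -1.66 ± 0.39. In ribosomal protein genes the intron-like share had -1.0 ± 0.70 and in other coding genes -1.55 ± 0.65.

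**Figure D3:**
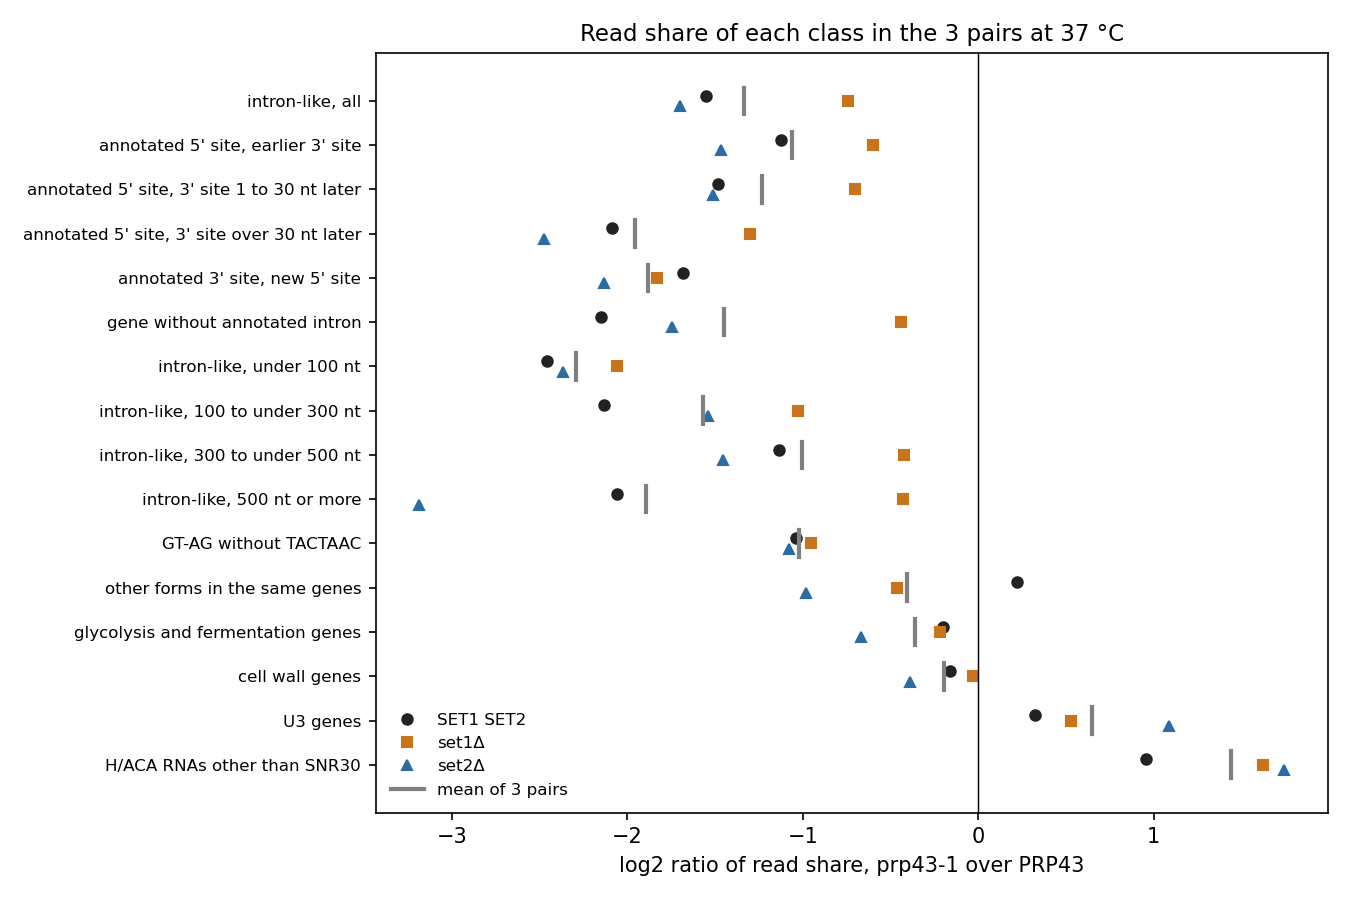
log2 ratio of the read share, prp43-1 over PRP43, in each of the 3 pairs at 37 °C by class of form or gene, with grey bars for the mean. The intron-like classes plotted lie left of 0 in all 3 pairs, and the U3 genes and the H/ACA RNAs lie right of 0 in all 3 pairs.

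HAC1 encodes the transcription factor of the unfolded protein response, and its annotated intron is cut by Ire1 and joined by tRNA ligase, without a spliceosome. A 68 nt form within that intron region, at chrVI:75897-75964 and without GT-AG ends, had 288, 190 and 360 reads in the prp43-1 libraries, against 1377, 457 and 1123 in the PRP43 libraries. Groups did not overlap and the log2 fold change was -1.63 ± 0.38 (SE; edgeR adjusted p = 0.00771). A 252 nt HAC1 form, as long as the annotated intron and shifted from it, had 59, 18 and 1640 reads in prp43-1 against 21, 33 and 17 in PRP43. That form was named after its values were seen, and 1 library, set2Δ prp43-1, holds nearly all of its reads.

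The glycolytic genes, which hold many forms without GT-AG ends, had 1 form that fell, ENO2 186 nt. ENO2 encodes enolase, and this form had 55, 39 and 29 reads in the prp43-1 libraries, against 137, 173 and 77 in the PRP43 libraries (edgeR adjusted p = 0.0493, passing in 2 of 11 other settings). Its ends share a repeat of 7 nt, so the position of the gap within the repeat is not fixed by the sequence. Over the gene sums of the list for glycolysis and fermentation, 11 of 19 genes with reads were tested and 0 passed. TDH3 had 241332, 255565 and 134568 RPM in prp43-1 against 291197, 250610 and 233052 RPM in PRP43. PGK1, for phosphoglycerate kinase, had 34484, 31531 and 29661 RPM in prp43-1 against 68222, 78628 and 52253 RPM in PRP43 (edgeR adjusted p = 0.116). Scaled to reads on coding genes alone the mean log2 ratio of the list was -0.04, and on the main scale it was -0.36.

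Of 163 SCR1 forms tested 2 rose and 0 fell, while 4 of all 446 forms tested rose (0.897%). The 196 nt SCR1 form had 75, 110 and 140 reads in prp43-1 against 21, 45 and 18 in PRP43. Its log2 fold change was 2.09 ± 0.46 (SE; edgeR adjusted p = 0.00452), and its ends share a repeat of 7 nt. The 339 nt form had 44, 35 and 52 reads in prp43-1 against 10, 11 and 13 in PRP43 (edgeR adjusted p = 0.0332). SCR1 as a whole did not pass, with a log2 fold change of 0.31 ± 0.43 (SE; edgeR adjusted p = 0.711) and overlapping groups.

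Reads on small nucleolar RNA genes were higher in prp43-1, unlike the intron-like forms. H/ACA RNAs guide pseudouridylation or, like SNR30, take part in cutting the ribosomal RNA precursor. SNR30 had 1628, 1116 and 1019 reads in the prp43-1 libraries, against 492, 976 and 266 in the PRP43 libraries. Groups did not overlap, although the library labelled set1Δ came close, and the log2 fold change over all SNR30 forms was 1.38 ± 0.47 (SE; edgeR adjusted p = 0.0460). SNR34, a guide for the large-subunit RNA, had 24, 81 and 129 reads in prp43-1 against 20, 7 and 26 in PRP43, and also rose (2.08 ± 0.66, SE; edgeR adjusted p = 0.0286), although its groups overlapped. Each of these calls passed in 5 of 11 other settings. Without the wild type pair the log2 fold change of SNR30 was 0.92 (edgeR adjusted p = 0.349), and SNR34 did not pass with any 1 pair left out (edgeR adjusted p = 0.0877 to 0.655).

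The 9 H/ACA genes tested all had fold changes above 0, with 2 that rose, 0 that fell and a median log2 fold change of 1.38. Over all 125 genes tested 3 rose (2.4%) and the median was -0.63. SNR8 had 31, 89 and 69 reads in prp43-1 against 20, 20 and 14 in PRP43. All of its reads were on a 23 nt form that rose in the test across forms (1.78 ± 0.49, SE; edgeR adjusted p = 0.0381), while the gene sum did not pass (edgeR adjusted p = 0.0541). SNR46 had 16, 76 and 96 reads in prp43-1 against 21, 12 and 15 in PRP43 (edgeR adjusted p = 0.0692), and SNR37 had 34, 60 and 56 against 28, 5 and 14 (edgeR adjusted p = 0.0511). The named forms of SNR8, SNR34 and SNR46 have no GT-AG ends.

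The H/ACA genes other than SNR30 held 0.530%, 0.768% and 0.978% of the reads in the prp43-1 libraries, against 0.273%, 0.249% and 0.292% in the PRP43 libraries. The PRP43 libraries were nearly equal and all prp43-1 libraries were higher, with paired log2 ratios of 0.96, 1.62 and 1.74. Of 39 H/ACA forms with at least 10 reads, SNR30 forms included, 19 were higher in all 3 pairs and 0 lower. SNR30 alone held 20 of the 39 and 12 of the 19. Of all 1038 forms 106 were higher (10.2%) and 236 lower (22.7%). For U3, the RNA that pairs with the small-subunit precursor and holds its processing complex, the mean log2 ratio was 0.65 ± 0.40 (SD, n = 3 pairs). The gene sum of SNR17A, 1 of the U3 genes, did not pass (edgeR adjusted p = 0.352). The C/D RNA SNR190 had 47, 88 and 145 reads in prp43-1 against 24, 75 and 30 in PRP43 (edgeR adjusted p = 0.180). Both directions held with reads on coding genes or with column totals as the base, where the H/ACA mean without SNR30 was 1.76 and 1.19.

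**Figure D4:**
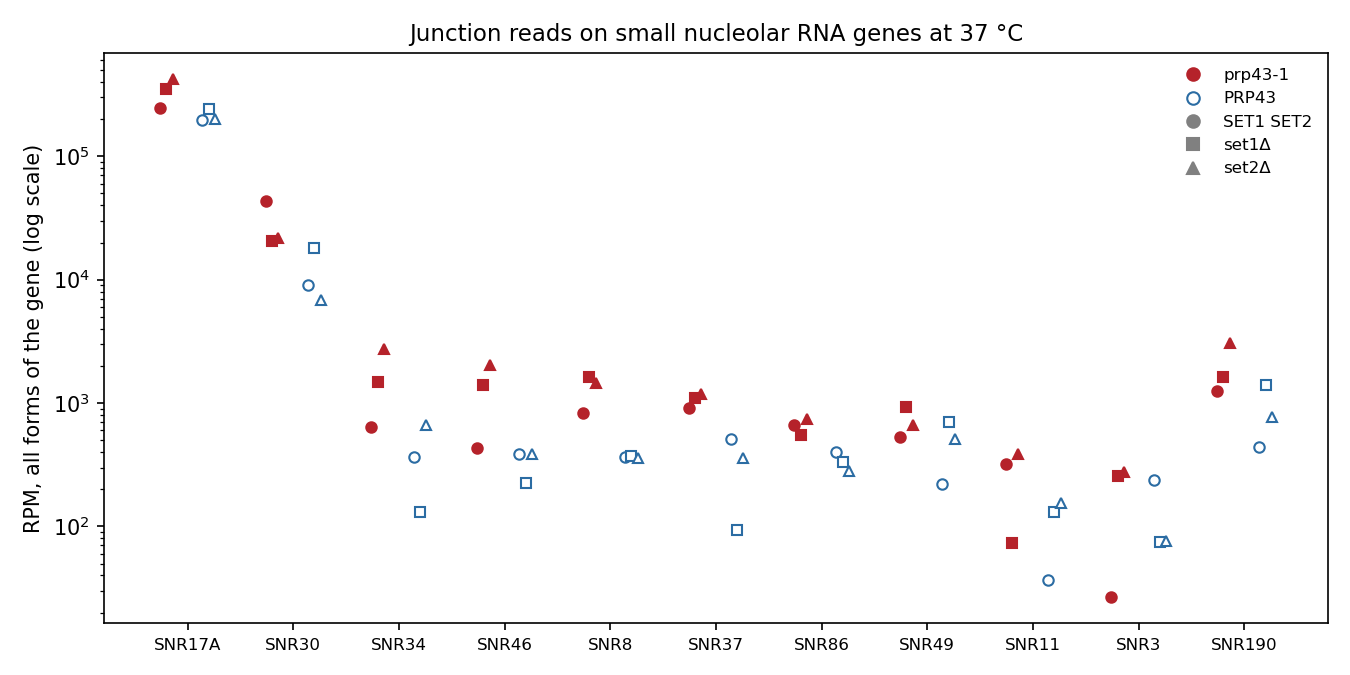
RPM summed over all forms of 11 small nucleolar RNA genes in the 6 libraries at 37 °C, on a log scale, prp43-1 filled and to the left of PRP43. SNR17A, SNR8, SNR30, SNR37, SNR46 and SNR86 do not overlap between the groups, and SNR3, SNR11, SNR34, SNR49 and SNR190 do.

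Summed per gene, 10 of 125 tested genes passed (8.0%), 7 of which fell (5.6%) and 3 rose (2.4%), and 28 had an unadjusted p under 0.05 (22.4%). With coding reads as library size 3 genes fell and 7 rose, with DESeq2 4 fell and 9 rose, and with column totals 1 passed. Without the wild type pair 0 genes passed (25 at an unadjusted p under 0.05), and 1 passed without the set2 pair. Of 296 genes with at least 10 reads, 67 did not overlap with lower values in prp43-1 (22.6%) and 14 with higher values (4.73%). The genes that fell included RPS22B, RPL30, APE2, MAF1, YCL002C and ATG44, in which the forms above hold most reads. PUS7 encodes an RNA pseudouridine synthase. Its listed forms held 0 reads in each prp43-1 library, against 21, 12 and 8 in the PRP43 libraries (edgeR adjusted p = 0.00488). Its intron-like form of 340 nt, named after its values were seen, had 14, 9 and 2 of those reads. PRM7, a gene for a pheromone-regulated membrane protein, did not pass, with 37, 72 and 17 reads in prp43-1 against 4, 50 and 2 in PRP43 (edgeR adjusted p = 0.0511).

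Among genes with an annotated intron, 32 of 182 with reads were tested, 6 fell, 0 rose and the median log2 fold change was -0.92. Over all 125 genes tested 7 fell (5.6%) and the median was -0.63. Of the ribosomal protein genes 27 of 114 with reads were tested and 2 fell, a share near that of all genes. Genes that host a small nucleolar RNA in an intron had 1 of 4 that fell, RPS22B. In the cell wall list 8 of 22 genes with reads were tested and 0 passed. SED1, the most read of them, had 66506, 59892 and 100017 RPM in prp43-1 against 89058, 100836 and 105632 RPM in PRP43. The mean log2 ratio of the cell wall list was -0.19, and it was 0.13 when scaled to reads on coding genes, so its sign depends on the base.

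The heat shock list had 12 genes with reads, of which 3 were tested and 0 passed. HSC82, for an Hsp90 chaperone, had 9, 8 and 10 reads in prp43-1 against 29, 31 and 19 in PRP43, with no overlap (edgeR adjusted p = 0.228). In the list of translation factors 5 of 9 genes with reads were tested and 0 passed. YEF3, for an elongation factor of fungi, had 293, 172 and 161 reads in prp43-1 against 326, 623 and 247 in PRP43. The ribosome assembly list had 7 genes with reads and 0 tested, the list of splicing helicases and debranching 2 with reads and 0 tested, and the Prp43 partners 0 with reads.

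HIS3 had the highest fold change of the genes tested. Its 20 nt gap had 35, 28 and 80 reads in the prp43-1 libraries, against 0, 6 and 0 in the PRP43 libraries, with a log2 fold change of 4.64 ± 0.82 (SE; edgeR adjusted p = 0.000314). HIS3 encodes an enzyme of histidine synthesis and is used as a selection marker, and the labels give his3Δ1 for all 6 strains. At 25 °C the 3 prp43-1 libraries held 122 reads of this gap together, against 0 in PRP43. Among forms with GT-AG ends, RPL7A 96 nt was an exception to the lower counts in prp43-1. RPL7A encodes a large-subunit protein, and this form uses the 5′ site of an annotated intron that holds SNR39, with a 3′ end 372 nt before the annotated one. It had 10, 9 and 8 reads in the prp43-1 libraries, against 1, 0 and 0 in the PRP43 libraries. It was named after its values were seen, had too few reads for the test of the 6 libraries, and rose in the fit of all 12 libraries (edgeR adjusted p = 0.0146). That fit took both libraries of a strain as independent. The 96 nt form did not pass in the fits of the 6 libraries that kept it, without a filter (edgeR adjusted p = 0.12) or with coding reads as library size (edgeR adjusted p = 0.104). At 25 °C it had 19, 14 and 13 reads in prp43-1 against 0, 0 and 0 in PRP43 (edgeR adjusted p = 0.00418). RPL7A 110 nt, from the same 5′ site and also named after its values were seen, had 5, 7 and 1 reads in prp43-1 at 37 °C against 0, 0 and 0 in PRP43.

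The same strains at 25 °C served to ask whether the difference between prp43-1 and PRP43 depended on temperature. At 25 °C intron-like forms took 1.15%, 1.35% and 1.32% of the reads in the prp43-1 libraries, against 2.06%, 2.44% and 2.36% in the PRP43 libraries, a mean log2 ratio of -0.84. The paired differences, 37 °C minus 25 °C, were -0.71, 0.11 and -0.86 in the wild type, set1 and set2 pairs. Their mean was -0.49 ± 0.52 (SD, n = 3; exact two-sided sign-flip p = 0.50), no larger than the spread between pairs. Only the set1 pair lay above 0. At 25 °C H/ACA genes other than SNR30 held 0.725%, 0.579% and 0.813% of the reads in prp43-1, against 0.772%, 0.536% and 0.647% in PRP43. Every PRP43 share was lower at 37 °C than at 25 °C. The prp43-1 share was lower at 37 °C with the allele alone and higher with set1Δ or set2Δ. For these genes the mean log2 ratio at 25 °C was 0.12. The difference of 1.32 ± 0.25 was in the same direction in all 3 pairs (exact two-sided sign-flip p = 0.25, the smallest possible). With SNR30, which holds most H/ACA reads, the difference was 1.07 ± 1.07 (SD, n = 3), with 0.04 in the set1 pair (exact two-sided sign-flip p = 0.25). For intron-like forms with a 3′ end over 30 nt past the annotated site the difference was -1.74 ± 0.94, and for forms with a new 5′ site and an annotated 3′ site it was -0.05 ± 0.63.

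Across single forms, 0 of 510 passed the edgeR test of the interaction of prp43-1 with temperature (0.0%), 45 had an unadjusted p under 0.05, and DESeq2 called 1. This fit of all 12 libraries, which also gave the tests at 25 °C, took both libraries of a strain as independent. At 25 °C itself 7 of the 510 forms passed for prp43-1 against PRP43 (1.37%). RPS22B 69 nt was among them, with 15, 100 and 81 reads in prp43-1 against 138, 154 and 327 in PRP43 (log2 fold change -2.19 ± 0.38, SE; edgeR adjusted p = 0.00116). RPS22B 550 nt was also among them, with 1, 4 and 2 reads in prp43-1 against 28, 51 and 44 in PRP43 (edgeR adjusted p = 0.00115). APE2 365 nt was not, with 68, 155 and 66 reads in prp43-1 against 99, 167 and 91 in PRP43, and its interaction had an unadjusted p of 0.00147 (edgeR adjusted p = 0.224). RPL30 98 nt and MAF1 622 nt had 0 reads in prp43-1 at 25 °C against 1 and 0 reads in PRP43, so their difference was not detectable at that temperature. SNR8 had 63, 86 and 49 reads in prp43-1 at 25 °C against 84, 32 and 58 in PRP43, with an unadjusted interaction p of 0.00175 (edgeR adjusted p = 0.224).

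**Figure D5:**
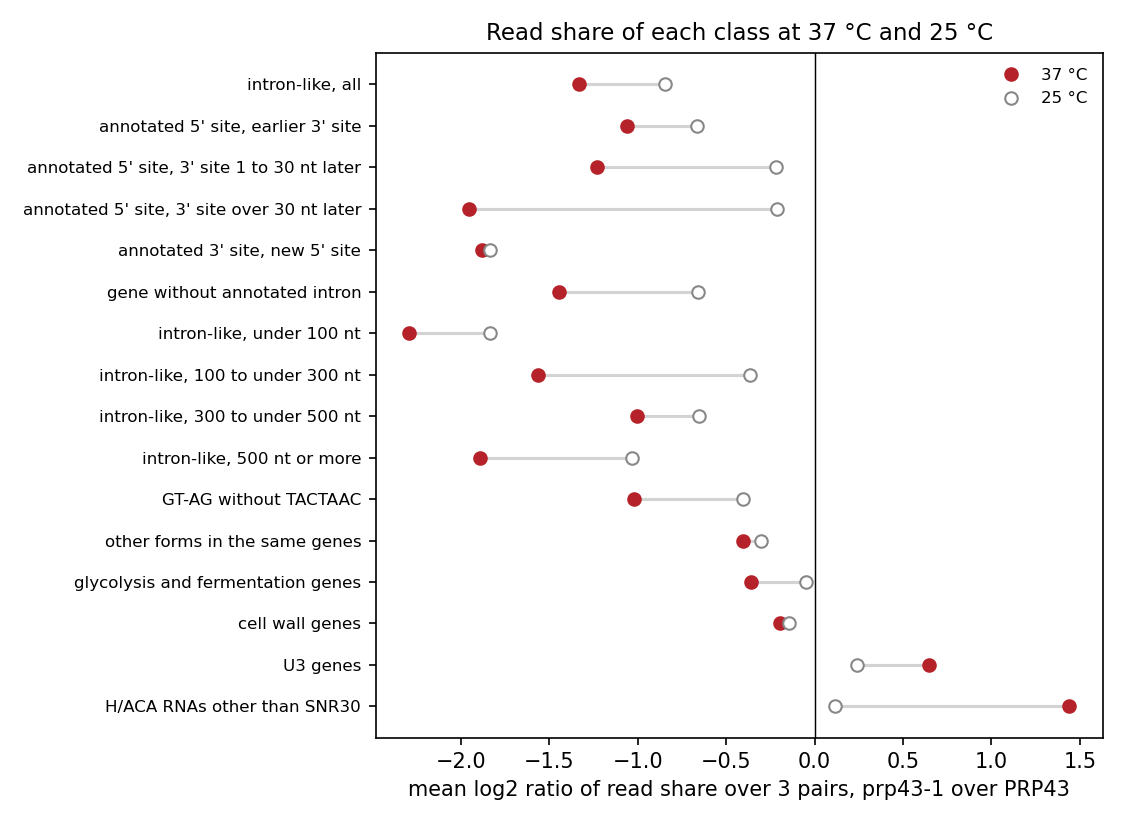
Mean log2 ratio of the read share over 3 pairs, prp43-1 over PRP43, at 37 °C (filled) and at 25 °C (open) by class of form or gene. Intron-like forms lie at -1.33 at 37 °C and -0.84 at 25 °C, and the H/ACA RNAs other than SNR30 lie at 1.44 and 0.12.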

How the data were processed

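RNA sequencing reads over splice forms were compared in 6 libraries at 37 °C, with the 6 at 25 °C for the test of temperature. The authors deposited 1 table of splice forms with counts per library and a p-value per form, and the headers do not say what that p-value tests. Per the submitters' processing notes, CASAVA and STAR 2.4.0 were used with sacCer3. Forms with a deposited p-value under 0.05 are called low-p. Counts in the deposited table are whole reads per form that were not scaled. Column totals are reads on listed forms, not library depth, and intervals cover counting error only. Overlapping, antisense and near-identical genes (RPS22B, RPL7A, RPS10B and RPS25A among them) may share reads, since strand use is not given in the sources used here.

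Of the 6195 forms at 6160 positions, 6101 had a host that matched the annotation and 29 had none. The build was checked on 1112 forms with a deposited p-value under 1, of which 729 had GT-AG ends at their coordinates, while no shift within 40 nt gave over 26. Forms were tested with edgeR 4.0.16 in R 4.3.3 (quasi-likelihood, SET status as block, library size equal to reads on hosts other than SCR1, filterByExpr with a minimum count of 10 and a total of 15, Benjamini-Hochberg at 0.05, 2 residual degrees of freedom). Standard errors were derived from the F statistic (size of the log2 fold change divided by √F). DESeq2 1.42.0 was an alternative. Fits of all 12 libraries took both libraries of a strain as independent. Pairing came from SET status in the labels, and no replicate numbers are shared. Named forms and genes were those that passed in the same direction in all pairs, up to 12 per direction, filled up to 12 in all by the lowest p, and all intron-like forms with at least 30 reads. The members and lists were chosen with earlier results of these data known. Scaling, filter, tool, block and left-out pairs were varied.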

Additional observations from a re-analysis of the deposited data

Results flagged for a closer look

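The RPS0B 662 nt form, in a gene for a small-subunit ribosomal protein, had opposite differences at the 2 temperatures. At 37 °C it had 2, 2 and 2 reads in the prp43-1 libraries, against 8, 10 and 6 in the PRP43 libraries, and at 25 °C it had 28 reads in all in prp43-1 against 16 in PRP43. The log2 ratio of pooled reads, prp43-1 over PRP43, was lower by 2.34 at 37 °C than at 25 °C (-2.34). That difference was not tested.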

How the results depend on the processing

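The count of 12 forms was 7 with TMM factors, 0 with column totals that include SCR1 (edgeR, 56 at an unadjusted p under 0.05) and 31 with all 12 libraries. Leaving out 1 pair gave 1 to 27 forms. Of the 27 without the set1 pair, 17 fell, 10 rose and 9 were shared with the 12. The count was 9 to 15 in the other settings. The count of 10 genes was 1 with column totals, 5 without a filter and 22 with all 12 libraries, and leaving out 1 pair gave 0 to 12. Scaling to reads on coding genes moved the split from 8 lower and 4 higher to 4 lower and 5 higher for forms, and from 7 lower and 3 higher to 3 lower and 7 higher for genes. DESeq2 gave 4 lower and 9 higher genes. The median log2 fold change of all forms was -0.02 on the main scale, 0.33 with coding reads and -0.27 with column totals. The interaction count of 0 was 1 with DESeq2 and 0 to 6 when leaving out 1 SET status. Where the count moved, the cause was not tested. None of the 12 forms and none of the 10 genes passed in all of their other settings.

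The intron-like share kept its direction in all 8 other settings, at -1.0 to -1.63, and the low-p share at -0.97 to -1.57. Of 311 other values for single forms 303 kept their direction. The 8 others were RPS10B 379 nt with coding reads (0.039) and without the set2 pair (0.027, in a range of -0.75 to 0.027 over left-out pairs), RPS25A 308 nt without the set1 pair (-0.052, range -0.052 to 0.53), RPL34A 365 nt without the set1 pair (-0.084), and SEC14 127 nt with coding reads (0.12), with DESeq2 (0.0058), without the wild type pair (0.76) and without the set2 pair (0.24, range -1.24 to 0.76). All 123 other values for single genes kept their direction. A count of intron-like forms without the set1 pair and a base without U3 reads (-1.07 for the intron-like and -1.03 for the low-p share) were added after seeing the data. No paired analysis by replicate number was possible because each group has 1 library, and the SET block above is the pairing used.

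With 1 library per genotype, the spread is that between strains, and the smallest p of a share test is 0.25. The named forms held 25 to 3795 reads at 37 °C, with fewer on UBC13 151 nt and RPL7A 110 nt.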
